A study of Caenorhabditis elegans with 2 samples.

Results

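The genes of the DREAM complex of Caenorhabditis elegans, called DRM in worms, were examined for peaks of the tagged homeodomain protein CEH-79. The 8 genes lin-9, lin-54, lin-35, lin-37, lin-52, lin-53, efl-1 and dpl-1 were taken from the 19985 protein-coding genes of the annotation as the genes that encode the complex. The set was selected on earlier results of these data, in which lin-9 and lin-54 had promoter peaks in the authors' optimal list, so the ranks and signals below are a description and carry no test. Each gene was described by the peaks whose summit lay from 1000 bp upstream to 200 bp downstream of an annotated start, called its promoter window here, and by those elsewhere between its ends.

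The DRM complex combines a pocket protein of the retinoblastoma family, an E2F and DP pair of transcription factors, and a core of MuvB proteins, and is known in worms for repressing transcription of its target genes. LIN-35 is the pocket protein, EFL-1 the E2F protein and DPL-1 its DP partner. LIN-9, LIN-37, LIN-52, LIN-53 and LIN-54 form the MuvB core, in which LIN-54 binds DNA and LIN-53 is a histone-binding protein of the RbAp family. These genes belong to the class B synthetic multivulva (synMuv) genes, which act against ectopic vulval fates, and the complex is also known for keeping germline genes off in somatic cells.

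Chromatin was taken from whole young adult worms of strain OP553, which were of mixed sex and were collected 66 hours after release from starvation at the first larval stage. The strain carries the mutation unc-119(tm4063) and the integrated transgene wgIs553, which encodes CEH-79 with GFP and FLAG at its C terminus, and an antibody against GFP was used. The study held 1 group of 2 biological replicates and so no contrast between conditions. Worms were not separated by tissue, so the cells in which a peak arose are unknown. In the ce11 build the pooled list and that of replicate 1 each held 30000 candidates, that of replicate 2 held 29624, and the optimal list held 566 peaks. The authors labelled the pooled and replicate lists as peaks and background, so a candidate outside the optimal list may be background. Signals are values the authors assigned to peaks, comparable only within a list, and ranks run from 1 for the strongest. Read depth is unknown.

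An optimal summit lay in the promoter window of 3 of the 8 genes, lin-9, lin-54 and lin-53. Over all protein-coding genes the share was 1.48%, and because lin-9 and lin-54 entered the choice of the set, nothing is read from the difference. The optimal peaks were also the strongest pooled candidates, so their ranks are the same in both lists. None of the 8 genes had an optimal summit elsewhere in the gene, where the share over all genes was 0.996%. A pooled candidate, optimal or not, had its summit in the window of 6 of the 8 genes, against 36% of all genes, and lin-37 and dpl-1 had none. Of the strongest such candidates, the deposited -log10 q was 2.48 at lin-9 and lin-54, 2.31 at lin-53 and 1.66 at lin-35. It was 0.551 at lin-52 and 0.258 at efl-1, so these counts take in candidates that may be background.

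The summit sequences of lin-9 and lin-54 are shown because they are the optimal peaks from which the set was drawn, and that of pcn-1, the gene for the sliding clamp of DNA replication, because it was the strongest promoter peak among the related genes examined. Each run covers the pooled summit and 100 bases on each side, read 5' to 3' on the strand of the named gene from the RefSeq assembly WBcel235, which has the ce11 coordinates. Capitals mark the words searched on both strands. These were TTTGAA and TTCGAA, forms of the CHR element that LIN-54 binds, TTTCCCGC, TTTCGCGC, TTTGCCGC and TTTGGCGC, forms of the E2F site, and TAATTA, a homeodomain site. The lin-9 window is chrIII:8904171-8904371 on the minus strand, that of lin-54 chrIV:13240557-13240757 on the plus strand and that of pcn-1 chrIV:4049595-4049795 on the minus strand.
lin-9: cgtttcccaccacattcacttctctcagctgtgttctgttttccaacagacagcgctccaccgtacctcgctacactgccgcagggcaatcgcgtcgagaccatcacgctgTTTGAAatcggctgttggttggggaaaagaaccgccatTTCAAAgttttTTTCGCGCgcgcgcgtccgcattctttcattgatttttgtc
lin-54: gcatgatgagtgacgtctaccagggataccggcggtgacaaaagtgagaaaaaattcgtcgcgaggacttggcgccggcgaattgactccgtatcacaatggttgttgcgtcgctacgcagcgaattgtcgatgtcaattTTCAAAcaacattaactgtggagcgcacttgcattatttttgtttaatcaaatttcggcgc
pcn-1: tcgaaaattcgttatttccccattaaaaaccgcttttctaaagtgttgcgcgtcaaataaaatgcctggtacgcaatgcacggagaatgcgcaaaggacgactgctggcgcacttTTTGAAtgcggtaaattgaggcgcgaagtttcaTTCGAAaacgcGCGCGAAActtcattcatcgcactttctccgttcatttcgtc

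Within the summit and 50 bases on each side, TTTGAA was present at lin-9, at lin-54, where it lies on the opposite strand, at lin-53 and at pcn-1. The same word was present in 13.8% of the 566 optimal summit windows of that length and in 19.04% of the 30000 pooled ones. In the lin-9 run it begins 11 bases past the summit, in the lin-54 run 40 bases past it and in the pcn-1 run 15 bases past it. No E2F form and no TAATTA lay in this window of a member. With 100 bases on each side lin-9 also held TTTCGCGC, pcn-1 held its reverse complement, and lin-53 held TTTCCCGC. At this length lin-9 and lin-53 each held another TTTGAA, on the opposite strand, which at lin-9 begins 49 bases past the summit. The pcn-1 run held a TTCGAA 48 bases past its summit. That word was present in 12.4% of optimal and 10.5% of pooled windows of that length. Any of the 4 E2F forms was present in 6.01% of optimal and 4.09% of pooled windows of that length, and TAATTA in 5.65% and 6.42%. The summit windows of lin-52 and lin-35 held none of the 7 words at either length, and that of efl-1 held a TTTGAA in the longer one, as did 30.4% of optimal and 35.96% of pooled windows of that length. The summit window of epc-1, the other related gene with an optimal promoter summit, also held none of the 7 words at either length. With 25 bases on each side lin-9 was the one member with a word. A match in these letters is a description and not evidence of a bound site.

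The summit windows of lin-9 and lin-53 had the highest GC content of the 6 genes with a pooled promoter candidate. The GC content with 50 bases on each side was 57.4% at lin-9, 55.4% at lin-53, 48.5% at lin-54, 44.6% at lin-35, 39.6% at efl-1 and 37.6% at lin-52. It was 46.9% ± 9.21 (SD over 566 peaks) at optimal summits and 41.6% ± 9.002 (SD over 30000 peaks) at all pooled summits. The peak intervals of lin-9, lin-54, lin-35, lin-52 and lin-53, each 424 bp wide, had no match elsewhere in the genome at a blastn e-value of 1e-05. That of efl-1 had 5 other matches, the longest 67 bp at 79.1% identity. Short noncoding genes (tRNA, snoRNA and snRNA) were more than 500 bp away from the summits of these 6 genes, and the nearest one was 1580 bp from the lin-54 summit, 14135 bp from that of lin-53 and 33496 bp from that of lin-9.

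lin-9 (WBGene00002998, chromosome III, 8900237 to 8904131, minus strand) encodes a core MuvB protein of the family of Drosophila Aly. Its promoter peak (8904059 to 8904482) was intergenic, with the summit 140 bp upstream of the start. The peak ranked 192 in the pooled list with a signal of 115.4. In replicate 1 its signal was 49.6 at rank 751, and in replicate 2 it was 61.5 at rank 127, so it lay among the 566 strongest candidates of replicate 2 only. The replicate 2 summit was 1 bp from the pooled one and that of replicate 1 was 35 bp farther upstream. A second pooled candidate in the window, 997 bp upstream of the start at rank 3865 (signal 50.2), lay just inside the limit of the window and also in that of unc-32, the gene for a subunit of the vacuolar proton pump, which is read in the other direction.

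Within lin-9, both pooled candidates lay in the last exon, exon 9. One summit was in coding sequence at rank 12927 (signal 34.5) and the other in the 3' UTR at rank 20291 (signal 28.7). Beyond the end of the gene, 1829 bp downstream, was another optimal peak, ranked 339 (signal 100.5), which is outside lin-9 by the rule used.

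lin-54 (WBGene00003037, chromosome IV, 13241044 to 13243401, plus strand) encodes the DNA-binding core protein with cysteine-rich CXC motifs. Its promoter peak (13240445 to 13240868) ranked 229 in the pooled list with a signal of 109.4. It ranked 205 in replicate 1 (signal 68.6) and 843 in replicate 2 (signal 38.8), the reverse of the order seen at lin-9. The summits of the replicates were 7 bp and 0 bp from the pooled one. This promoter is shared. The gene rpl-12, for a protein of the large ribosomal subunit, is read in the other direction from a start 393 bp away, and the pooled summit lay 6 bp upstream of the rpl-12 start and 387 bp upstream of the nearest lin-54 start. Assigned to the nearest start, the peak belongs to rpl-12 and not to lin-54, and the optimal count of the set is 2.

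The other pooled candidate inside lin-54 had its summit in coding exon 4 at rank 18150 (signal 30.2). JC8.4 and cox-11, a cytochrome oxidase assembly gene, follow on the same strand, 273 and 922 bp past the end of lin-54.

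lin-53 (WBGene00003036, chromosome I, 9618196 to 9619760, minus strand) had the third optimal promoter peak. That peak (9619760 to 9620183) ranked 515 with a signal of 88.9, close to the end of the optimal list, whose last peak had a signal of 86.53 and whose next pooled candidate had 86.51. It ranked 1100 in replicate 1 (signal 44.8) and 594 in replicate 2 (signal 42.8), outside the 566 strongest of each, with summits 10 and 12 bp from the pooled one. The summit lay 212 bp upstream of lin-53 and 255 bp upstream of nra-2, a nicalin family gene that is read in the other direction from a start 467 bp away. A weaker pooled candidate 944 bp upstream of lin-53 (rank 11038, signal 36.5) lay in an intron of nra-2.

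Both pooled candidates inside lin-53 lay in coding exon 3, at ranks 8729 (signal 39.4) and 19118 (signal 29.5). They also fell in the promoter window of rba-1, the RbAp paralogue of lin-53, which begins 88 bp past the end of lin-53 on the same strand. Their assignment to one or the other gene is therefore not settled by position.

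**Figure D1:**
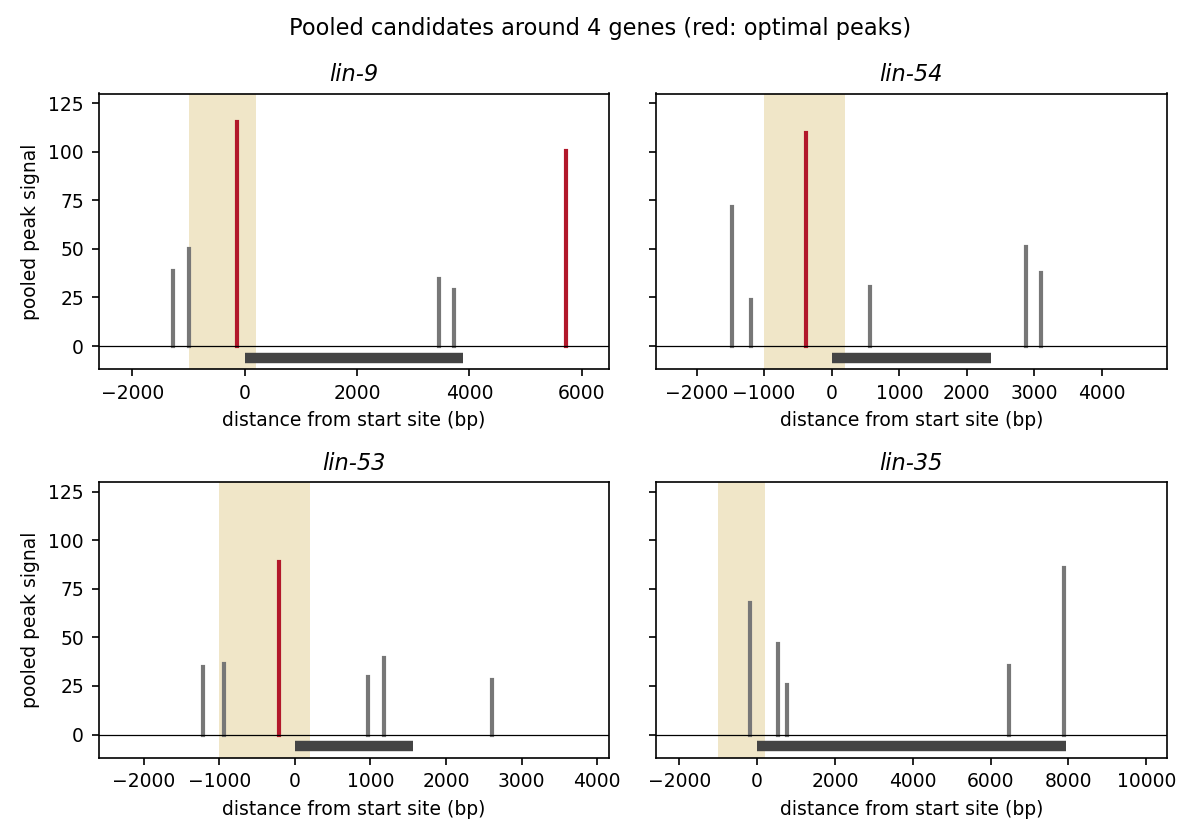
Pooled candidate peaks around lin-9, lin-54, lin-53 and lin-35, with distance of the summit from the gene's start (bp) on the x axis and pooled peak signal on the y axis. Each vertical line is 1 candidate, red where it is in the optimal list, the shaded band is the promoter window and the dark bar the gene. The red lines in the bands stand at signals of 115.4, 109.4 and 88.9, and at lin-35 the tallest line, at 85.6, is at the far end of the gene and grey.

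The pocket protein gene lin-35 (WBGene00003020, chromosome I, 5807709 to 5815637, plus strand) had its strongest candidate at the 3' end and not at the promoter. The summit of that candidate (5815396 to 5815819) lay in the 3' UTR, in exon 10, 7899 bp downstream of the start. It ranked 581 in the pooled list with a signal of 85.6, just past the end of the optimal list. The strongest overlapping candidate ranked 2171 in replicate 1 (signal 37.5) and 466 in replicate 2 (signal 45.4). The gene hmg-3, for a subunit of the FACT histone chaperone, ends there on the other strand and overlaps lin-35.

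The promoter candidate of lin-35 (5807316 to 5807739) ranked 1292 (signal 67.8), 181 bp upstream of the start. It ranked 6724 in replicate 1 (signal 27.7) and 1064 in replicate 2 (signal 36.5). It too is in a shared promoter, 237 bp upstream of vps-51, a vesicle tethering gene read in the other direction from a start 418 bp away. Of the 3 other pooled candidates inside lin-35, the strongest was intronic, 536 bp past the start, at rank 5045 (signal 46.4). Another, at rank 25914, lay where the gene C32F10.4, on the other strand, overlaps an intron of lin-35.

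Of the remaining core genes, lin-52 had a pooled promoter candidate outside the optimal list and lin-37 had none. At lin-52 (WBGene00003035, chromosome III, 9824083 to 9824750, minus strand) the pooled candidate ranked 5005 (signal 46.6), with its summit in coding exon 1, 33 bp past the upstream start. It ranked 3623 in replicate 1 (signal 32.7) and 13051 in replicate 2 (signal 18.5). At lin-37 (WBGene00003022, chromosome III, 7070890 to 7072552, minus strand) the pooled and replicate 1 lists held no candidate in the window or the gene. The replicate 2 list held 2 in the window, the stronger at rank 9417 (signal 20.7) in an intron 157 bp past the start.

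Both genes follow another on the same strand, as genes of worm operons do. ZK418.5 ends 60 bp upstream of lin-37 and had no pooled candidate in its own window, and ZK632.9 ends 126 bp upstream of lin-52 and had one at rank 8679 (signal 39.5), 688 bp upstream of its start. Operon annotation was not used here, so co-transcription of these pairs was not examined. The annotation gives lin-37 no 5' UTR, and its start may not be the site where transcription begins.

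Of the E2F and DP genes, efl-1 had a pooled promoter candidate outside the optimal list and dpl-1 had none. At efl-1 (WBGene00001161, chromosome V, 16958590 to 16965675, minus strand) the pooled promoter candidate ranked 10134 (signal 37.5), 951 bp upstream, and lay closer to the F-box gene fbxa-90, whose start is 188 bp from the summit. The strongest window candidate ranked 10861 in replicate 1 (signal 23.8, 184 bp past the start) and 11609 in replicate 2 (signal 19.3, 946 bp upstream). The pooled candidate also overlapped a stronger one of replicate 1, at rank 9186 (signal 25.14), whose summit lay 1144 bp upstream and so outside the window. At dpl-1 (WBGene00001061, chromosome II, 9169910 to 9172565, plus strand) the window held no pooled or replicate 1 candidate, and 1 in replicate 2 at rank 24933 (signal 14.02).

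The stronger candidate inside dpl-1 lay in the 3' UTR, at pooled rank 10436 (signal 37.2) and rank 2822 in replicate 1 (signal 34.9), with no overlapping candidate in replicate 2. All of dpl-1 lies within T23G7.2, which is on the other strand.

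**Figure D2:**
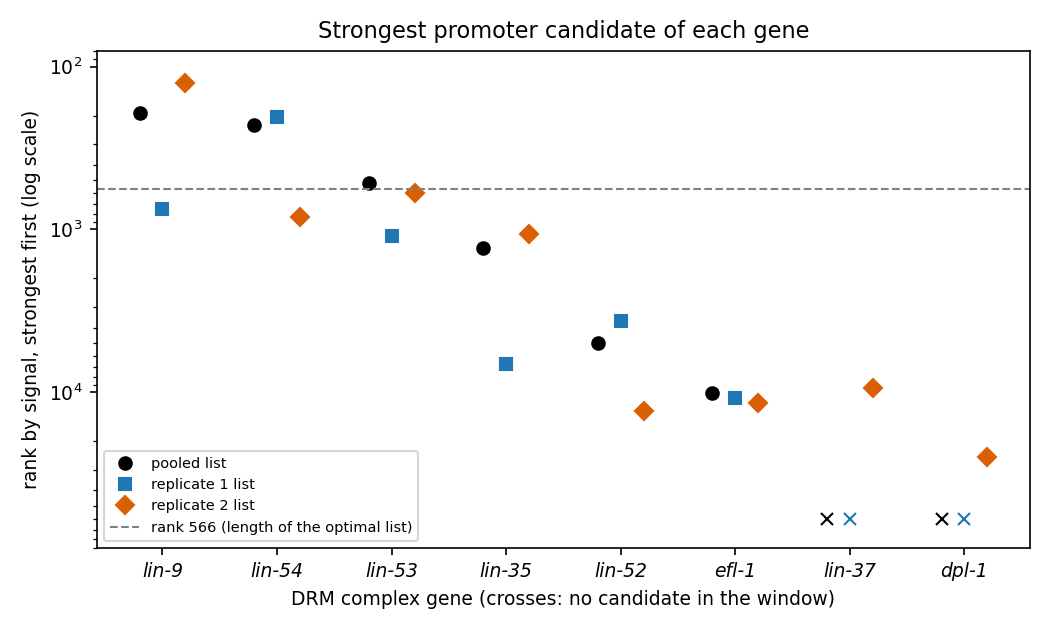
Rank by signal (log scale, strongest at the top) of the strongest promoter candidate of each DRM complex gene in the pooled (circles), replicate 1 (squares) and replicate 2 (diamonds) lists, with a cross where the window holds none. The dashed line is rank 566, above which lie the pooled ranks of lin-9 (192), lin-54 (229) and lin-53 (515), but only 1 replicate rank each for lin-9 (127) and lin-54 (205).

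Set against each replicate alone, the membership differed. Among the 566 strongest candidates of replicate 1, lin-54 was the one member with a promoter summit (1.48% of all genes), and among those of replicate 2 it was lin-9 (1.33% of all genes). Of the 296 genes with an optimal promoter summit, 146 had one among the 566 strongest of both replicates, 79 of replicate 1 only, 51 of replicate 2 only and 20 of neither. lin-54, lin-9 and lin-53 fall in the last 3 of these classes. Over the whole replicate lists, 6 of the 8 genes had a promoter candidate in replicate 1 (36.4% of all genes) and 8 in replicate 2 (36.3% of all genes). The replicates shared the control alignment used in calling, so they are not independent in that respect.

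Elsewhere in the gene, 6 of the 8 genes had a pooled candidate, against 44.4% of all genes, and lin-37 and lin-52 had none. Genes were not matched for length in this comparison, and the members range from 668 bp (lin-52) to 7929 bp (lin-35).

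Read from opposite strands, 3 of the 8 genes share their promoter with a protein-coding start within 1000 bp upstream, namely lin-54, lin-53 and lin-35. Over all genes 17.7% had such a partner, and over the 296 genes with an optimal promoter summit 25% did. Of the 243 optimal peaks in promoter windows, 57 (23.5%) lay in the windows of more than 1 gene, as those of lin-54 and lin-53 do and that of lin-9 does not.

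Among the 7186 genes with a pooled promoter candidate, the strongest one had a median signal of 35.6 and ran from 23.2 to 294. At or above the signal of lin-9 were 112 genes, lin-9 included, and at or above those of lin-54 and lin-53 were 133 and 276. For lin-35 the number was 588, for lin-52 1795 and for efl-1 3159.

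**Figure D3:**
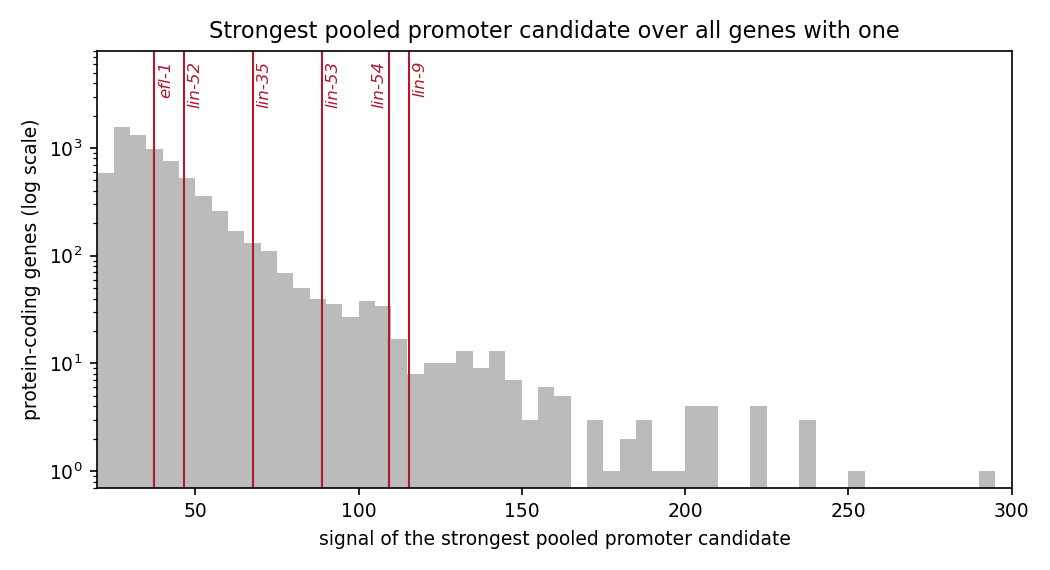
Signal of the strongest pooled promoter candidate of each of 7186 genes (x axis) and number of genes in bins of signal (y axis, log scale), with red lines at 6 DRM complex genes. The line of efl-1 (37.5) stands near the median of 35.6, that of lin-52 (46.6) above it, and those of lin-9 (115.4) and lin-54 (109.4) in the upper tail.

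Genes with promoter ranks most like those of lin-9 were vig-1, a gene of the RNA silencing machinery, F31B12.3 and K12H4.5. Likeness was the Euclidean distance of the log10 ranks in the pooled, replicate 1 and replicate 2 lists, over 4016 genes with a candidate in each. Their distances from lin-9 were 0.131, 0.131 and 0.199, and vig-1 ranked 237, 903 and 142 in the 3 lists. Genes that share a peak with the member were left out, so rpl-12, whose ranks are those of lin-54, was not compared. Closest to lin-54 were then Y17D7C.1 (distance 0.0519, ranks 228, 230 and 870) and a pair of genes with one promoter peak, spp-26 and twk-10 (distance 0.133). All of these genes had an optimal promoter summit. A likeness over 2 replicates and their pool rests on few values.

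Beyond the complex, 65 genes in 7 related lists were examined, and 2 of them (3.08%, against 1.48% of all genes) had an optimal promoter summit. These were pcn-1 and epc-1, the enhancer of polycomb homologue of the class C synMuv genes. A pooled candidate was in the window of 41 of the 65 (63.1%, against 36% of all genes). These shares over all genes, 1.48% optimal and 36% pooled, are the background of each list below, and nothing is called particular to a list from its count. The peak of pcn-1 (chromosome IV, 4049483 to 4049906) ranked 333 (signal 101.2), 529 in replicate 1 (signal 53.6) and 508 in replicate 2 (signal 44.4), 247 bp upstream of the start. It lay among the 566 strongest of both replicates, as no member's peak did. That of epc-1 (chromosome III, 12608506 to 12608929) ranked 438 (signal 93.2), 170 in replicate 1 (signal 71.6) and 2828 in replicate 2 (signal 28.9). In replicate 2 its summit lay 55 bp past the start and not 132 bp upstream of it as in the pooled list. The pooled peak also lay in the window of Y111B2A.12.

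The other synMuv genes, which act with or beside the complex in the vulva, had no optimal promoter summit outside class C. Of 10 other class B genes 5 had a pooled candidate (36% of all genes did). By pooled rank they were led by the SUMO pathway genes ubc-9 (rank 1740, signal 62.2) and smo-1 (rank 3860, signal 50.2). Then came tam-1 (rank 11868). The window of ubc-9 held a candidate in replicate 1 (rank 850) and none in replicate 2. That of smo-1 held one in replicate 2 (rank 2348) and none in replicate 1. For tam-1 the window candidate of replicate 1 ranked 8616, and replicate 2 held none. The windows of lin-13, lin-36, lin-61, lin-65 and hpl-2, a heterochromatin protein gene, held no pooled candidate. Of 4 class A genes 2 had a pooled candidate, lin-56 (rank 3659) and lin-15A (rank 28840, none in either replicate list). Of 6 class C genes 4 did, and after epc-1 came ruvb-2, an ATPase gene (rank 3047), and ssl-1, a chromatin remodeller gene (rank 17825). In replicates 1 and 2 the ranks were 4348 and 4966 for ruvb-2, and 26545 and 23039 for ssl-1. The strongest replicate 1 candidate of ssl-1 lay at another start, with its summit at 12714294 against 12715471 in the pooled list.

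Genes of the NuRD and MEC chromatin complexes had pooled candidates in 5 of 7 windows (36% over all genes) and no optimal summit (1.48% over all genes). They were led by egl-27 (rank 2936, signal 54.1), let-418, the Mi-2 homologue (rank 9367), and mep-1 (rank 10040). In replicates 1 and 2 the strongest window candidates of egl-27 (ranks 4701 and 3317) lay at another start. Their summits were at 6844685 and 6845137, against 6834035 in the pooled list. The window of let-418 held a candidate in replicate 1 (rank 7715) and none in replicate 2. Of 5 genes whose loss is known to suppress synMuv phenotypes 2 had a pooled candidate, zfp-1 (rank 1369, signal 66.8) and mrg-1 (rank 9521). The strongest window candidate of zfp-1 ranked 277 in replicate 1 and 19610 in replicate 2. The pooled candidate of mrg-1 was shared with spcs-2. In replicate 1 the mrg-1 window held a candidate at rank 6079, and in replicate 2 none.

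Cell cycle genes were taken as a group that E2F and DREAM complexes are known to control in animals. Of 10 regulators of entry into S phase 8 had a pooled candidate (36% of all genes) and 0 an optimal summit (1.48% of all genes). They were led by cye-1, the cyclin E gene (rank 1396, signal 66.4), cdk-4 (rank 3073) and efl-2, an E2F gene (rank 4236). The candidate of cye-1 was shared with pqn-21 and that of cdk-4 with F18H3.1. In replicates 1 and 2 the ranks were 786 and 7353 for cye-1, 2557 and 29515 for cdk-4, and 5219 and 16165 for efl-2. Of 23 genes of S phase and mitosis 15 had a pooled candidate and pcn-1 alone an optimal one. After it came mcm-6 (rank 1798, signal 61.7) and mcm-5 (rank 3150), both of the replicative helicase. The candidate of mcm-6 was shared with srxa-10 and that of mcm-5 with nth-1. In replicates 1 and 2 the ranks were 1086 and 14674 for mcm-6 and 2481 and 16013 for mcm-5.

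**Figure D4:**
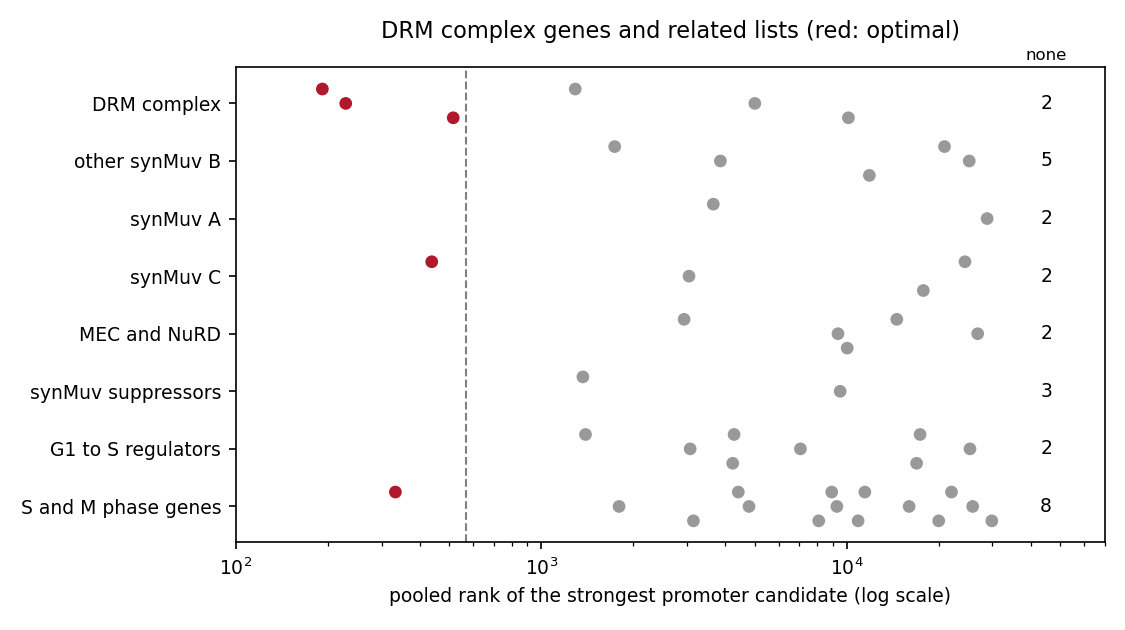
Pooled rank (log scale) of the strongest promoter candidate of each gene in the DRM complex and 7 related lists, 1 point a gene, red where the summit is optimal, with the number of genes without a candidate at the right. Left of the dashed line at rank 566 are lin-9, lin-54 and lin-53 in the top row, and epc-1 and pcn-1 in the others.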

How the data were processed

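Peaks of tagged CEH-79 from 2 replicates of whole worms were read as deposited in ce11. Per the deposited notes, the authors called peaks per replicate and on both alignments pooled, with a single control, and derived the optimal list from these lists by the irreproducible discovery rate. The sources used here do not name the aligner or the caller. Peaks were ranked within a list by the deposited signal, and the deposited -log10 q, which is capped in 452 pooled peaks, was an alternative rank. The lists hold no read counts, so no precision from depth can be given. Lists in ce10 were not used here.

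Starts of protein-coding transcripts were those of Ensembl release 115 (WBcel235, the ce11 coordinates), and sequence was from RefSeq. Coordinates are 1-based. A summit was assigned to every gene whose window held it, which was tested on simulated data. The members, the gene lists and the words were chosen with earlier results of these data known. No tests were run, since the choice of members used the peaks. The genes named were the members, genes sharing their strongest promoter peak, same-strand neighbours upstream within 1000 bp, list genes with an optimal summit, up to 3 per list by signal, and the 3 genes most like lin-9 and lin-54. JC8.4, cox-11, rba-1, unc-32, hmg-3, C32F10.4, T23G7.2, tag-115, the class B genes without a pooled candidate and the genes sharing a peak with a list gene were named after their values were seen. Alternatives were other windows (500 to 100 bp, 2000 to 500 bp), the gene's 5' end, overlap by at least 1 bp, the nearest start, the stronger part of each list, each replicate alone, the -log10 q and word windows of 25 and 100 bases on each side in place of 50. Scripts ran in Python 3.11.15 (pandas 2.3.3, numpy 2.4.6, matplotlib 3.10.9) with blastn 2.17.0.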

Additional observations from a re-analysis of the deposited data

How the results depend on the processing

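The count of 3 members with an optimal promoter summit was 3 with windows of 500 bp upstream to 100 bp downstream and of 2000 bp upstream to 500 bp downstream, with the 5' end of the gene and with overlap in place of the summit, while the share of all genes was 0.946%, 2.29%, 1.33% and 1.7% in that order. It was 2 with the nearest start site, without lin-54 (2.61% of all genes), and 2 among the 283 strongest optimal peaks, without lin-53 (0.786%). It was 1 without replicate 1 (lin-9, 1.33% of all genes) and 1 without replicate 2 (lin-54, 1.48%), where the 566 strongest candidates of the other replicate stood in for the optimal list. The count of 6 members with a pooled promoter candidate ran from 5 with the narrow window (22.9% of all genes) to 8 without replicate 1 (36.3%), and was 7 with the broad window (53.6%). With the nearest start it was 7 (61.7%), but that assignment is not confined to the promoter window. It takes in summits inside genes, such as those 553 bp past the start of lin-54 and 441 and 2321 bp past that of dpl-1. By -log10 q, lin-9 and lin-54 both ranked 1, because that value is capped and tied in 452 pooled peaks. The 3 members with a sequence word at the summit became 1 with 25 bases on each side in place of 50, which covers fewer bases, and 4 with 100. No paired analysis was possible because the study has 1 group and no contrast. Depth is unknown, so a window without a candidate does not show that the protein is absent there.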

Other observations

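Beyond rpl-12, a further candidate had its summit 1472 bp upstream of the lin-54 start, in the promoter window of tag-115, which follows rpl-12 on the same strand. It ranked 1081 in the pooled list (signal 71.5). In replicate 2 the nearest candidate, 1412 bp upstream, ranked 438 (signal 46.1), above the candidate at the shared promoter (843). In replicate 1 the nearest candidate, 1405 bp upstream, ranked 25496 (signal 16.5). A stronger one 1605 bp upstream ranked 6142 (signal 28.4), still far below that at the promoter (205).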
